A study of Sus scrofa with 20 samples.

Results

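Gene expression was compared between the hearts of pigs that had undergone a single preconditioning session and hearts of sham-operated pigs. The comparison takes 10 of the 20 arrays of the study, 5 of the group named SWOP and 5 of the group named control. The arrays were taken by their labels, with earlier results of these data known. In SWOP a coronary artery was closed 2 times for 10 min and each time reopened for 10 min, and per the labels the heart was taken after 24 h of reperfusion. Control pigs had the operation without occlusion. The study's other groups serve here only as a reference: RCO received the SWOP stimulus 6 times, 12 h apart, and RCS received 6 periods of 90 min of reduced coronary flow, 12 h apart. All animals were female, each group held 5 separate pigs, and each pig gave 1 array, so the p-values below measure the spread between animals. The sources used here do not give strain, age, the region of the heart sampled or the time of day. The title sets the study's question as how protection after chronic ischemia compares with the classical second window.

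A brief coronary occlusion makes the heart resistant to a later, longer one. The resistance comes in an early phase that fades within hours and a late phase, the second window of preconditioning, that returns about a day later and needs new protein synthesis. Work on the late phase has centred on inducible nitric oxide synthase, cyclooxygenase, heme oxygenase, superoxide dismutases, heat shock proteins and the potassium channel of the cell surface that is gated by ATP.

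The values are log2 signals of a 1-colour Affymetrix porcine array, so a difference of 1 is a doubling of the signal. After spike-in and other control spots were set aside, 23999 probe sets were tested, of which 10069 carried 1 gene symbol and stood for 6765 genes, each read from its brightest probe set. The number of arrays limits the precision. The median standard error of a log2 difference was 0.111. The defining transcripts of heart muscle were among the brightest signals, with control means of 14.87 for MYH7, 14.88 for MYL2, 14.78 for TNNI3 and 14.22 for TNNT2, and none of these passed between the groups. Because the tissue was read in bulk, fewer cells of a type and less RNA per cell cannot be told apart. The interquartile range of an array's log2 values was 3.26 to 3.30 on the SWOP arrays and 3.04 to 3.16 on the control arrays (two-sided exact permutation p = 0.00794, the smallest possible with 5 against 5). On the control probe sets for actin, the 3′ end exceeded the 5′ end, a gap that widens as RNA integrity falls. The gap was 1.30 ± 0.06 in SWOP and 1.36 ± 0.19 in control (SD, n = 5 each, exact permutation p = 0.508). Spike-in signal was 11.33 ± 0.15 and 11.38 ± 0.03 (exact permutation p = 0.587), with 11.60 on SWOP replicate 1. On the RCS arrays the actin gap was 0.51 to 0.695 and the spike-in signal 11.055 to 11.23, both below every SWOP and control array. The same gap for GAPDH was −0.017 to 0.167 in RCS, 0.06 to 0.143 in SWOP and 0.06 to 0.077 in control. The actin gap was 0.68 to 1.31 on the RCO arrays.

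A day after the brief occlusions, SWOP hearts had more transcript of enzymes of glycolysis, serine, sterol and sialic acid synthesis (LDHA, PFKP, PSPH, SC5D, NANS), of the redox enzyme GLRX, of 2 small heat shock proteins (HSPB6, HSPB7, while HSPB1 and CRYAB did not pass), of mitochondrial import (TOMM5, TIMM8A), of contractile and cytoskeletal proteins (CNN1, TNNT1, DES) and of cell cycle genes (PCNA, CDK2). They had less of the clock repressor PER1, the stress regulators FOXO3 and CLU, the phosphodiesterase PDE4B and early response genes (NR4A3, FOSL2). Among these genes DES and CDK2 lost their calls with the mean of all probe sets, and TIMM8A after quantile normalization. PFKP, PSPH, HSPB7, TIMM8A, DES, PCNA, NR4A3 and FOSL2 each lost the call when a certain single array was left out. Of 35 listed effectors of late preconditioning 21 were measured, of which 0 rose and 1 fell, the survival protein MCL1. These counts are near the shares over all genes, 4.66% higher and 3.5% lower. With only the SWOP and control arrays in the fit 2 rose, TXN and SOD1, and 1 fell, against 894 and 489 of all 6765 genes. Most differences were small: of the 552 genes that passed, 87 differed by at least 1.5-fold.

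Differences between SWOP and control were tested with limma. At an adjusted p below 0.05, 8.16% of the 6765 genes passed (552 genes), 4.66% higher in SWOP and 3.5% lower (315 and 237). These shares are the reference for every list count of this fit below. The lists were chosen with earlier results of these data known, so their counts only describe the data. Over all genes the median difference was 0.04 as deposited, −0.002 after quantile normalization and 0.07 after centring each array on its median. The share of passing genes that were higher was 57.1% as deposited, 42.7% after quantile normalization and 70.9% after centring, so the balance of rising and falling genes followed the scaling. It also followed signal: when the 23999 probe sets, of which 7.15% passed, were divided by mean signal into 3 equal parts, 12.8% of passing probe sets were higher in the dimmest part, 26.1% in the middle part and 78.4% in the brightest, against 45.9%, 39.1% and 40.2% after quantile normalization. The part of the wider spread of SWOP values in these shares was not tested. In 15.1% of genes the groups did not overlap on any array, 652 with SWOP above and 367 with SWOP below. The number of passing genes fell to 195, 158 and 311 without control replicates 2, 4 and 5, and to 214, 270, 165 and 228 without SWOP replicates 2, 3, 4 and 5. Of the 107 named genes that passed, 36 also passed whichever of the 10 arrays was left out, and 68 passed after quantile normalization. No named gene that passed changed direction under quantile normalization or centring.

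**Figure D1:**
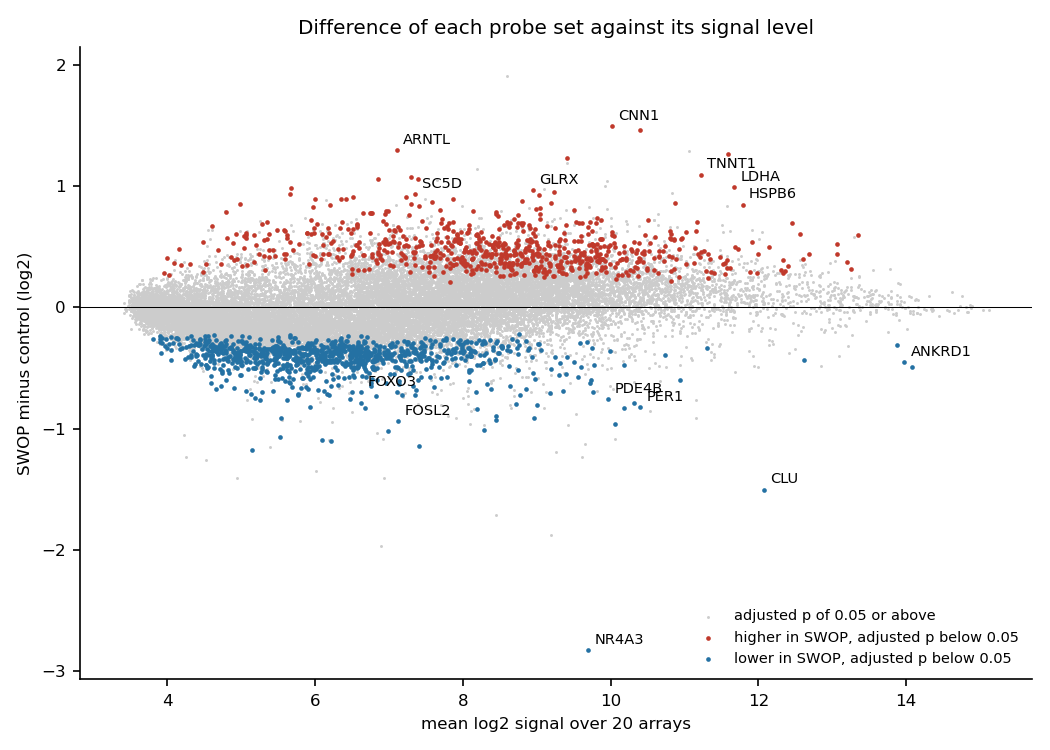
Difference between SWOP and control (vertical, log2) of 23999 probe sets against their mean signal over 20 arrays (horizontal, log2). Red and blue points passed limma at an adjusted p below 0.05; among them red points make up 12.8% in the dimmest of 3 equal parts by signal and 78.4% in the brightest.

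The genes of energy metabolism that rose were few. LDHA, the muscle-type subunit of lactate dehydrogenase that interconverts pyruvate and lactate, read 10.71, 10.07, 10.90, 10.45 and 10.38 on control replicates 1 to 5 and 11.50, 11.60, 11.25, 11.63 and 11.49 on SWOP replicates 1 to 5. Every SWOP array lay above every control array, and the lowest control value was that of replicate 2. The difference was 0.99 ± 0.16 (SE, adjusted p = 0.0065), or 1.99-fold, and it was 1.52 in RCO (adjusted p = 4.3e-05) and 2.17 in RCS (adjusted p = 1.9e-07), groups tested against the same controls. PFKP, the platelet-type phosphofructokinase, differed by 0.59 ± 0.15 (SE, adjusted p = 0.024). PFKP lost its call without SWOP replicates 2 or 5 or control replicate 4 (adjusted p up to 0.0688). TPI1, triosephosphate isomerase, rose by 0.31 ± 0.09 (SE, adjusted p = 0.041). TPI1 lost its call without any 1 of 7 arrays, all but SWOP replicate 1 and control replicates 1 and 3 (adjusted p up to 0.109). These were the 3 of 29 measured genes of glucose uptake and glycolysis that passed, all higher, against 4.66% higher over all genes. The list median was 0.17 (0.10 after quantile normalization). The count higher was 1 without SWOP replicates 2 or 5 or control replicate 4 and 5 without SWOP replicate 1. The glucose transporter SLC2A1, at 0.63 ± 0.20 (SE, adjusted p = 0.057), and glycogen synthase GYS1, at 0.55 ± 0.19 (SE, adjusted p = 0.08), did not pass. PDK4, a kinase that shuts off pyruvate dehydrogenase, read 7.26, 11.52, 11.03, 11.27 and 9.29 on control replicates 1 to 5 and 9.18, 8.22, 7.57, 8.03 and 7.97 on SWOP replicates 1 to 5. Its control values ran from 7.26 to 11.52 and covered the SWOP values, and its difference of −1.88 ± 0.63 (SE, adjusted p = 0.071) did not pass.

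Fatty acid genes had 0 of 36 members higher and 1 lower, SLC27A6, a long-chain fatty acid transporter, at −0.33 ± 0.09 (SE, adjusted p = 0.035). SLC27A6 lost its call without any 1 of 6 arrays, all but SWOP replicates 1 and 5 and control replicates 2 and 3 (adjusted p up to 0.102). After quantile normalization SLC27A6 lost its call (adjusted p = 0.095), so that 0 of 36 passed in either direction. The list median was −0.09, −0.16 after quantile normalization and −0.05 without control replicate 3. The gatekeeper of mitochondrial fatty acid entry, CPT1B, did not pass at −0.23 ± 0.18 (SE, adjusted p = 0.41). CPT1C, an isoform known from the brain, fell by 0.57 ± 0.10 (SE, adjusted p = 0.0088), from 6.22 to 5.65 in mean signal, and kept its call whichever array was left out. Of 26 genes of the citrate cycle and ketone use 1 passed, the cytosolic isocitrate dehydrogenase IDH1, which rose by 0.46 ± 0.13 (SE, adjusted p = 0.036). IDH1 lost its call without any 1 of 6 arrays, all but SWOP replicate 1 and control replicates 1, 3 and 4 (adjusted p up to 0.101). That list's median was 0.04 as deposited and −0.04 after quantile normalization. Complex I of the respiratory chain had 0 of 33 subunits past the threshold in limma (6 higher and 0 lower at an unadjusted p below 0.05), although 32 differences were above 0 and in 12 subunits every SWOP array exceeded every control array, as in 9.64% of all genes. Over all 6765 genes 1113 were higher at an unadjusted p below 0.05, a share near the 6 of 33. SWOP replicate 5 held the highest of the 10 values in 25 of the 33 subunits. The list's median difference was 0.20, 0.11 after quantile normalization, and its largest members were NDUFC1 at 0.47 ± 0.18 (SE, adjusted p = 0.1) and NDUFA2 at 0.39 ± 0.14 (SE, adjusted p = 0.088). With only the 10 arrays of both groups in the fit, 15 of the 33 subunits passed, all higher. Over all 6765 genes that fit gave 894 higher and 489 lower. Of 23 genes of complexes III to V 1 passed, the cytochrome oxidase subunit COX7A2, at 0.40 ± 0.11 (SE, adjusted p = 0.039). COX7A2 lost its call without any 1 of 8 arrays, all but control replicates 3 and 5 (adjusted p up to 0.0997).

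Several biosynthetic enzymes rose. NANS, which makes the sialic acid phosphate that caps glycoproteins, read 8.28, 8.22, 8.54, 8.35 and 8.52 on control replicates 1 to 5 and 9.18, 9.29, 9.15, 9.07 and 8.85 on SWOP replicates 1 to 5. The groups were well apart, with the lowest SWOP value above the highest control value. The difference was 0.73 ± 0.11 (SE, adjusted p = 0.0063), and NANS was 1 of 7 named genes that passed under every alternative tried. PSPH, the last enzyme of serine synthesis, rose by 1.07 ± 0.25 (SE, adjusted p = 0.019). PSPH lost its call without SWOP replicates 2 or 4 or control replicate 2 (adjusted p up to 0.0569). SC5D, a desaturase near the end of cholesterol synthesis, read 7.34, 6.28, 6.60, 7.12 and 6.70 on control replicates 1 to 5 and 7.32, 7.63, 7.84, 8.10 and 7.83 on SWOP replicates 1 to 5. Only the lowest SWOP value fell among the controls' upper values. It rose by 0.94 ± 0.20 (SE, adjusted p = 0.014), or 1.91-fold, and kept its call without any single array. Of 22 genes of sterol and isoprenoid synthesis 3 rose and 0 fell, with a median of 0.21, against 4.66% higher over all genes. After quantile normalization 1 rose, SC5D. The other 2 were MSMO1, the sterol methyl oxidase, at 0.46 ± 0.12 (SE, adjusted p = 0.029), and CYP51, the lanosterol demethylase, at 0.47 ± 0.14 (SE, adjusted p = 0.049). MSMO1 lost its call without any 1 of 7 arrays, all but SWOP replicate 1 and control replicates 1 and 3 (adjusted p up to 0.0781). CYP51 lost its call without any 1 of 7 arrays, all but SWOP replicate 1 and control replicates 1 and 3 (adjusted p up to 0.119). The other 2 probe sets of MSMO1 differed by −0.11 and 0.03. Counts for the list were 1 without SWOP replicates 2, 3, 4 or 5 or control replicates 2, 4 or 5, and the rate-limiting enzyme of fatty acid desaturation, SCD, stood at −0.61 ± 0.66 (SE, adjusted p = 0.58). TFRC, the receptor that brings iron into cells, rose by 0.95 ± 0.29 (SE, adjusted p = 0.048). TFRC lost its call without any 1 of 8 arrays, all but SWOP replicate 1 and control replicate 3 (adjusted p up to 0.134). TFRC and LDHA were the 2 of 18 hypoxia response genes that rose, and 0 fell, against 4.66% higher over all genes. After quantile normalization 1 rose, LDHA, and TFRC lost its call (adjusted p = 0.098). That list's median was 0.11, 0.02 after quantile normalization and 0.06 without control replicates 2 or 5. SLC5A6, a transporter of biotin and pantothenate, rose by 0.73 ± 0.15 (SE, adjusted p = 0.012), with no overlap between the groups and no loss of the call without any array.

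Among contractile proteins, CNN1 differed most. CNN1 encodes calponin, a thin filament protein of smooth muscle, and read 8.16, 8.69, 8.52, 9.24 and 8.47 on control replicates 1 to 5 and 9.83, 10.00, 10.52, 10.52 and 9.67 on SWOP replicates 1 to 5. All SWOP arrays exceeded all control arrays. The difference of 1.49 ± 0.24 (SE, adjusted p = 0.0065) was 2.81-fold. TNNT1, the slow skeletal troponin T, read 9.73, 10.30, 10.32, 9.58 and 11.23 on control replicates 1 to 5 and 11.22, 11.51, 11.05, 11.60 and 11.25 on SWOP replicates 1 to 5. Control replicate 5 read inside the SWOP range and the other 4 control arrays read below it. TNNT1 rose by 1.09 ± 0.24 (SE, adjusted p = 0.015) and was 1.30 in RCO (adjusted p = 0.0029) and 1.57 in RCS (adjusted p = 4.9e-05). CNN1 and TNNT1 passed under every alternative. DES, the muscle intermediate filament desmin, rose by 0.60 ± 0.15 (SE, adjusted p = 0.025) on its brightest probe set, while its other probe set stood at −0.13. DES lost its call without SWOP replicates 2, 3 or 4 or control replicates 1 or 4 (adjusted p up to 0.0675). SMPX, a small muscle protein of the costamere, rose by 0.44 ± 0.12 (SE, adjusted p = 0.034). SMPX lost its call without any 1 of 7 arrays, all but SWOP replicate 1 and control replicates 3 and 5 (adjusted p up to 0.0836). TPM2, beta-tropomyosin, rose by 0.54 ± 0.16 (SE, adjusted p = 0.042), with its 3 other probe sets between −0.03 and 0.63. TPM2 lost its call without any 1 of 8 arrays, all but SWOP replicate 1 and control replicate 5 (adjusted p up to 0.11). NEBL, a nebulin relative at the Z-disc, read 8.45, 8.59, 8.49, 8.30 and 8.33 on control replicates 1 to 5 and 7.59, 7.62, 7.85, 8.17 and 7.90 on SWOP replicates 1 to 5. It was lower on every SWOP array than on any control array, and it fell by 0.61 ± 0.13 (SE, adjusted p = 0.013). These 4 were the members of the 24 sarcomere genes that passed, 3 higher and 1 lower, against 4.66% and 3.5% of all genes. The list median was −0.02 as deposited and 0.01 after centring. After quantile normalization 1 was higher and 1 lower. The count higher was 0 without SWOP replicates 2, 3 or 4 or control replicates 1 or 4 and 1 without SWOP replicate 5 or control replicate 2. ANKRD1, a stress-responsive titin partner that is among the brightest signals, read 13.57, 14.06, 14.19, 14.16 and 14.11 on control replicates 1 to 5 and 13.84, 13.55, 13.53, 13.57 and 13.33 on SWOP replicates 1 to 5. Control replicate 1 stood apart from the other controls and read among the SWOP values. ANKRD1 fell by 0.45 ± 0.11 (SE, adjusted p = 0.025). ANKRD1 lost its call without any 1 of 7 arrays, all but SWOP replicate 1 and control replicates 1 and 3 (adjusted p up to 0.0695). Of 20 skeletal muscle and fetal isoforms TNNT1 was the 1 that rose and ANKRD1 the 1 that fell, with a median of −0.10, or −0.07 without SWOP replicate 3.

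Of 28 genes of calcium handling and ion transport 1 passed, GJA5, the gap junction protein connexin 40, which rose by 0.70 ± 0.21 (SE, adjusted p = 0.044). GJA5 lost its call without any 1 of 8 arrays, all but SWOP replicate 1 and control replicate 1 (adjusted p up to 0.111). The list's median was 0.07 as deposited and −0.01 after quantile normalization. FKBP1B, which stabilises the ryanodine receptor, read 6.96, 6.41, 6.80, 6.61 and 7.14 on control replicates 1 to 5 and 7.59, 7.73, 7.39, 7.50 and 7.73 on SWOP replicates 1 to 5. SWOP arrays were all above control arrays, and FKBP1B rose by 0.80 ± 0.13 (SE, adjusted p = 0.0065) under every alternative, with its other probe set at 0.31. KCNA2, a voltage-gated potassium channel subunit, fell by 0.59 ± 0.12 (SE, adjusted p = 0.011), although its other probe set stood at −0.006. The SWOP mean of KCNA2, 5.30, lies below the 5.48 that marks the dimmest 30% of probe sets. Natriuretic peptide A, NPPA, stood at 0.55 ± 0.52 (SE, adjusted p = 0.52) and did not pass.

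**Figure D2:**
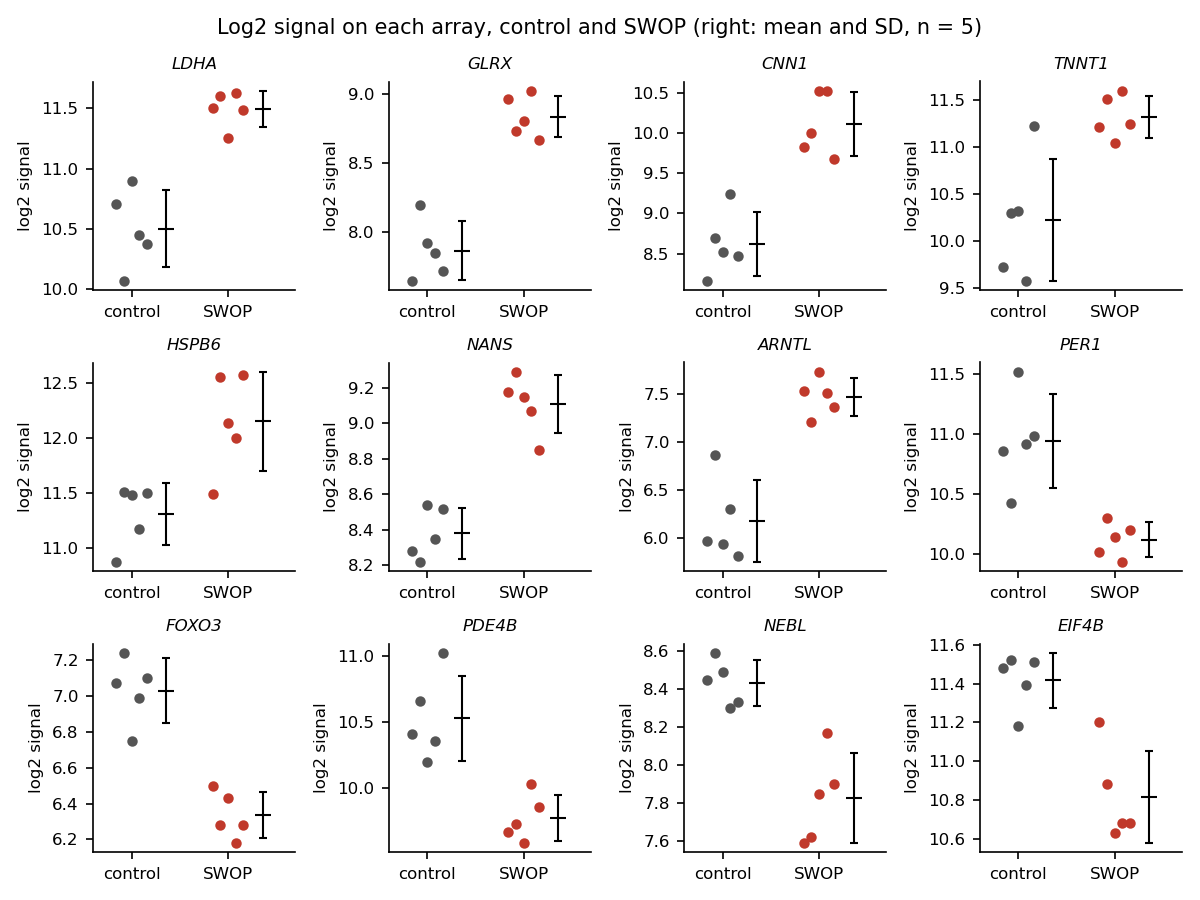
Log2 signal (vertical) of 12 genes on each control (grey) and SWOP (red) array, with the mean and SD of 5 arrays at the right of each group. In LDHA, GLRX, CNN1, NANS, ARNTL, PER1, FOXO3, PDE4B and NEBL the groups do not overlap; in TNNT1, HSPB6 and EIF4B they do.

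Of 21 measured effectors named for the late phase in other work, 1 passed, lower, where 3.5% of all genes were lower and 4.66% higher. At an unadjusted p below 0.05 limma gave 3 higher and 2 lower. Among all 6765 genes 1113 were higher and 807 lower at that unadjusted p. Inducible nitric oxide synthase, NOS2, read 7.19, 7.56, 6.97, 7.02 and 7.36 on control replicates 1 to 5 and 7.10, 6.87, 7.07, 6.98 and 6.70 on SWOP replicates 1 to 5. The groups overlapped, and its difference was −0.28 ± 0.12 (SE, adjusted p = 0.16). Cyclooxygenase 2, PTGS2, stood at 4.47 ± 0.87 in control and 4.10 ± 0.09 in SWOP (SD, n = 5 each). Its control mean rested on control replicate 4, at 6.00, where the next highest of the 10 arrays read 4.26, and the difference of −0.36 ± 0.26 (SE, adjusted p = 0.38) became 0.02 without that array. Heme oxygenase HMOX1 stood at −0.32 ± 0.38 (SE, adjusted p = 0.62), the mitochondrial superoxide dismutase SOD2 at 0.18 ± 0.14 (SE, adjusted p = 0.41) and the cytosolic SOD1 at 0.25 ± 0.09 (SE, adjusted p = 0.095). The inducible heat shock protein HSP70.2, a member of a family of near-identical copies, stood at −0.15 ± 0.43 (SE, adjusted p = 0.86). KCNJ8, the pore of the ATP-gated potassium channel, stood at 0.29 ± 0.15 (SE, adjusted p = 0.22). Thioredoxin, TXN, was higher on all 5 SWOP arrays than on any control array, but its 0.36 ± 0.12 (SE, adjusted p = 0.071) did not pass, while its other probe set, at 0.63, did. With only the SWOP and control arrays in the fit TXN passed (adjusted p = 0.0089), as did SOD1 (adjusted p = 0.039), so that 2 of the 21 were higher and 1 lower; over all genes that fit gave 894 higher and 489 lower. MCL1, which blocks apoptosis at the mitochondrion, fell by 0.34 ± 0.10 (SE, adjusted p = 0.039). MCL1 lost its call without any 1 of 8 arrays, all but SWOP replicate 1 and control replicate 1 (adjusted p up to 0.102). The median of these 21 genes was −0.05, against 0.04 over all genes; it ran from −0.08 to 0.005 with single arrays left out and was −0.001 with the 3 dim members left out. The other members, among them NOS3, PTGES, STAT3, JAK1, JAK2, NFKB1, ADORA1, HIF1A, SOD3, HSPB1, CRYAB and MT1A, had differences between −0.35 and 0.21 and did not pass. CRYAB stood at 0.20 ± 0.13 (SE, adjusted p = 0.31) on its brightest probe set and at −1.41 on the other.

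Of 31 cytosolic heat shock proteins and cochaperones 6 rose and 0 fell, against 4.66% higher over all genes. After quantile normalization 3 passed, and FKBP4, BAG1 and STUB1 lost their calls (adjusted p = 0.1, 0.12 and 0.21). HSPB6, a small heat shock protein abundant in muscle and a target of protein kinase A, read 10.87, 11.51, 11.48, 11.17 and 11.50 on control replicates 1 to 5 and 11.49, 12.56, 12.14, 12.00 and 12.58 on SWOP replicates 1 to 5. SWOP replicate 1 read among the higher controls and the other 4 SWOP arrays read above all controls. HSPB6 rose by 0.85 ± 0.19 (SE, adjusted p = 0.015), or 1.8-fold, its other probe set also passed, at 0.57, and the call held without any single array. HSPA4, an exchange factor of the large heat shock proteins, rose by 0.68 ± 0.15 (SE, adjusted p = 0.016). HSPA4 lost its call without control replicate 4 (adjusted p up to 0.0515). FKBP4, a cochaperone of steroid receptors, rose by 0.47 ± 0.12 (SE, adjusted p = 0.025). FKBP4 lost its call without SWOP replicates 4 or 5 or control replicate 4 (adjusted p up to 0.0668). HSPB7, a cardiac small heat shock protein, rose by 0.44 ± 0.12 (SE, adjusted p = 0.031). HSPB7 lost its call without any 1 of 6 arrays, all but SWOP replicate 1 and control replicates 1, 3 and 5 (adjusted p up to 0.0861). The remaining members that passed were BAG1 at 0.53 ± 0.15 (SE, adjusted p = 0.044) and STUB1, a ubiquitin ligase that works with chaperones, at 0.36 ± 0.10 (SE, adjusted p = 0.041). BAG1 lost its call whichever of the 10 arrays was left out (adjusted p up to 0.0915). STUB1 lost its call without any 1 of 8 arrays, all but SWOP replicate 1 and control replicate 3 (adjusted p up to 0.103). The list median was 0.10 as deposited and 0.01 after quantile normalization, and the abundant HSPA8 and HSP90AB1 stood at −0.04 and −0.03. The count higher was 1 without control replicate 4, 2 without SWOP replicates 4 or 5 and 3 without SWOP replicates 2 or 3 or control replicate 2. In the endoplasmic reticulum 0 of 19 chaperones and unfolded protein response genes passed in limma (4 higher and 0 lower at an unadjusted p below 0.05), with a median of 0.23. Among all 6765 genes 1113 were higher and 807 lower at that unadjusted p.

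Mitochondrial chaperones and import genes had 4 of 22 members higher and 0 lower, against 4.66% higher over all genes. After quantile normalization 1 passed, TOMM5, and TIMM8A, TIMM22 and GRPEL1 lost their calls (adjusted p = 0.077, 0.063 and 0.23). TOMM5, a small subunit of the outer membrane import pore, read 10.32, 10.29, 10.76, 10.36 and 10.47 on control replicates 1 to 5 and 11.16, 11.13, 11.05, 10.91 and 10.96 on SWOP replicates 1 to 5. The lowest SWOP value exceeded the highest control value, and TOMM5 rose by 0.60 ± 0.12 (SE, adjusted p = 0.012) whichever array was left out. TIMM8A, a carrier of the intermembrane space, rose by 0.65 ± 0.17 (SE, adjusted p = 0.03). TIMM8A lost its call without any 1 of 6 arrays, all but SWOP replicates 1 and 3 and control replicates 1 and 3 (adjusted p up to 0.0763). TIMM22, the inner membrane insertase, rose by 0.57 ± 0.14 (SE, adjusted p = 0.024). TIMM22 lost its call without SWOP replicates 2, 4 or 5 or control replicates 4 or 5 (adjusted p up to 0.0648). GRPEL1, which drives the nucleotide exchange of the matrix chaperone, rose by 0.26 ± 0.07 (SE, adjusted p = 0.032). GRPEL1 lost its call without any 1 of 6 arrays, all but SWOP replicates 2 and 3 and control replicates 1 and 3 (adjusted p up to 0.0816). In 12 of the 22 genes no SWOP array overlapped a control array, all with SWOP above (9.64% of all genes), and the median was 0.29, or 0.16 after quantile normalization. On single arrays the list ran from −0.08 to 0.05 in control and 0.20 to 0.35 in SWOP. The count higher was 1 without SWOP replicates 4 or 5 or control replicates 4 or 5 and 2 without SWOP replicate 2 or control replicate 2.

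GLRX, a glutaredoxin that removes glutathione from oxidised proteins, read 7.65, 8.20, 7.92, 7.85 and 7.72 on control replicates 1 to 5 and 8.96, 8.73, 8.80, 9.02 and 8.67 on SWOP replicates 1 to 5. SWOP values were all higher. The difference was 0.97 ± 0.16 (SE, adjusted p = 0.007), or 1.96-fold, it was 1.55 in RCO (adjusted p = 4.3e-05) and 1.82 in RCS (adjusted p = 4.7e-07), and its second probe set stood at 0.31. Of 40 antioxidant and glutathione genes 3 rose and 0 fell, against 4.66% higher over all genes. After quantile normalization 1 passed, GLRX. With only the SWOP and control arrays in the fit 10 were higher and 3 lower, against 894 and 489 of all 6765 genes. The other 2 were MSRA, which repairs oxidised methionine, at 0.45 ± 0.11 (SE, adjusted p = 0.025), and the peroxiredoxin PRDX2, at 0.28 ± 0.07 (SE, adjusted p = 0.025). MSRA lost its call without SWOP replicates 3 or 4 or control replicates 2 or 4 (adjusted p up to 0.0732). PRDX2 lost its call without any 1 of 6 arrays, all but SWOP replicates 1 and 2 and control replicates 3 and 5 (adjusted p up to 0.0644). After quantile normalization their adjusted p were 0.0503 and 0.14. The count higher was 1 without SWOP replicates 3 or 4 or control replicates 2 or 4 and 5 without SWOP replicate 1, and the list median was 0.14 as deposited and 0.04 after quantile normalization. Catalase, CAT, stood at −0.21 ± 0.11 (SE, adjusted p = 0.22).

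CLU, the secreted chaperone clusterin, read 12.56, 12.13, 12.60, 12.21 and 12.43 on control replicates 1 to 5 and 11.27, 9.92, 10.96, 11.36 and 10.91 on SWOP replicates 1 to 5. Every SWOP array lay below every control array, with SWOP replicate 2 lowest. CLU fell by 1.502 ± 0.28 (SE, adjusted p = 0.0092), or 2.83-fold. FOXO3, a transcription factor that switches on atrophy, autophagy and stress resistance genes, read 7.07, 7.24, 6.75, 6.99 and 7.10 on control replicates 1 to 5 and 6.50, 6.28, 6.43, 6.18 and 6.28 on SWOP replicates 1 to 5. Again the groups did not overlap. FOXO3 fell by 0.70 ± 0.11 (SE, adjusted p = 0.0065) under every alternative, with its other probe set at −0.11. In a mixed list of FOXO, atrophy and autophagy genes 1 of 23 rose and 1, FOXO3 itself, fell, near the 4.66% and 3.5% of all genes. The list median was 0.02 as deposited and −0.09 after quantile normalization. The member that rose was MAP1LC3A, an autophagosome protein, at 0.63 ± 0.15 (SE, adjusted p = 0.021). MAP1LC3A lost its call without SWOP replicate 5 or control replicate 4 (adjusted p up to 0.055). The atrophy ligase FBXO32 stood at −0.17 ± 0.34 (SE, adjusted p = 0.79). AKT1, a kinase that holds FOXO proteins outside the nucleus, rose by 0.45 ± 0.11 (SE, adjusted p = 0.025) on its brightest probe set, while its other probe set passed in the opposite direction, at −0.41, so its direction is uncertain. AKT1 lost its call without SWOP replicates 2, 4 or 5 or control replicates 2 or 4 (adjusted p up to 0.0737). Among 25 genes of apoptosis and survival AKT1 was the 1 higher and CLU and MCL1 the 2 lower, with a median of 0.13.

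The clock runs on ARNTL and its partner, which switch on PER and CRY genes whose products repress them. ARNTL read 5.96, 6.86, 5.93, 6.30 and 5.81 on control replicates 1 to 5 and 7.53, 7.21, 7.73, 7.51 and 7.36 on SWOP replicates 1 to 5. Control replicate 2 was the highest of its group and still lay below all SWOP arrays. ARNTL rose by 1.30 ± 0.27 (SE, adjusted p = 0.013), or 2.46-fold. PER1 read 10.86, 10.42, 11.52, 10.92 and 10.98 on control replicates 1 to 5 and 10.01, 10.30, 10.14, 9.93 and 10.20 on SWOP replicates 1 to 5. All SWOP arrays lay below all control arrays, and PER1 fell by 0.82 ± 0.18 (SE, adjusted p = 0.015), with its other probe set at −0.17. Neither call depended on a single array. RORA, a receptor that activates ARNTL, fell by 0.47 ± 0.13 (SE, adjusted p = 0.035). RORA lost its call without any 1 of 8 arrays, all but SWOP replicate 1 and control replicate 5 (adjusted p up to 0.0959). DBP, an output of the clock, was lower on every SWOP array than on any control array, but its difference of −0.28 ± 0.09 (SE, adjusted p = 0.071) did not pass. Among the 8 measured clock genes, CRY2 (−0.21), BHLHE40 (−0.13), CSNK1D (0.06) and NFIL3 (0.43) also did not pass. Against the same controls ARNTL stood at 1.03 in RCO (adjusted p = 0.022) and 1.43 in RCS (adjusted p = 0.0004), and PER1 at −0.68 in RCO (adjusted p = 0.021) and −0.64 in RCS (adjusted p = 0.0076).

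PER1 and FOXO3 also belong to the genes that glucocorticoids induce, of which 0 of 21 rose and 3 fell, against 3.5% lower over all genes. The remaining one was FKBP5, a cochaperone that dampens the glucocorticoid receptor, at −0.54 ± 0.15 (SE, adjusted p = 0.038), and its other probe set passed too, at −0.68. FKBP5 lost its call without any 1 of 7 arrays, all but SWOP replicates 1 and 5 and control replicate 3 (adjusted p up to 0.0979). Other members did not pass, among them TSC22D3, at −0.17 ± 0.15 (SE, adjusted p = 0.5), and KLF9, at −0.27 ± 0.16 (SE, adjusted p = 0.3). The list median was −0.22, and on single arrays it ran from −0.29 to 0.34 in control and −0.36 to −0.17 in SWOP. Control replicate 4 held the highest of the 10 values in 10 of the 21 genes. The median was −0.13 without that array and −0.40 without control replicate 2.

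Immediate early genes, which respond to stimuli within minutes, had 0 of 23 members higher and 4 lower, against 3.5% lower over all genes. NR4A3, an orphan nuclear receptor, read 9.28, 7.18, 11.01, 11.99 and 10.90 on control replicates 1 to 5 and 8.73, 6.53, 7.29, 7.40 and 6.27 on SWOP replicates 1 to 5. Control replicate 2 lay within the SWOP range and the other 4 controls lay above it. NR4A3 fell by 2.83 ± 0.72 (SE, adjusted p = 0.026), and its other probe set stood at −0.75 without passing. FOSL2, a subunit of the AP-1 transcription factor, read 6.92, 6.67, 7.22, 8.14 and 7.06 on control replicates 1 to 5 and 5.97, 6.23, 6.26, 6.46 and 6.39 on SWOP replicates 1 to 5. No SWOP array reached the lowest control. FOSL2 fell by 0.94 ± 0.23 (SE, adjusted p = 0.024), and IER3, an early response gene, fell by 0.79 ± 0.19 (SE, adjusted p = 0.021). NR4A3 lost its call without any 1 of 6 arrays, all but SWOP replicate 1 and control replicates 1, 2 and 3 (adjusted p up to 0.0762). FOSL2 lost its call without SWOP replicate 2 or control replicate 4 (adjusted p up to 0.0631). IER3 lost its call without SWOP replicates 2 or 4 or control replicates 2 or 4 (adjusted p up to 0.0614). MCL1 was the fourth. FOS and EGR1 read in the same direction but did not pass, at −0.97 ± 0.75 (SE, adjusted p = 0.43) and −0.97 ± 0.54 (SE, adjusted p = 0.25). FOS values were 7.04, 7.59, 10.11, 11.82 and 9.02 on control replicates 1 to 5 and 7.50, 6.55, 10.47, 9.01 and 7.21 on SWOP replicates 1 to 5. Control replicates 1 and 2 and SWOP replicates 1, 2 and 5 were low, and control replicate 4 was the highest. That array held the highest of the 10 values in 16 of the 23 genes. The list median, −0.47 over all arrays, was −0.22 without control replicate 4, −0.79 without control replicate 1 and −0.72 without control replicate 2, and the count lower was 0 without SWOP replicate 2 or control replicate 4, 1 without SWOP replicate 4 and 2 without SWOP replicates 3 or 5 or control replicate 2.

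Cytokines, chemokines and adhesion molecules showed the same array apart: control replicate 4 held the highest value in 21 of 38 genes. IL6 read 4.53, 4.57, 4.68, 9.98 and 5.67 on control replicates 1 to 5 and 4.58, 4.46, 4.39, 4.40 and 4.58 on SWOP replicates 1 to 5. Apart from control replicate 4 the groups lay close together, and the difference of −1.40 ± 0.67 (SE, adjusted p = 0.19) did not pass. In all 0 of 38 members rose and 3 fell, against 3.5% lower over all genes. TNF, tumour necrosis factor, fell by 0.58 ± 0.14 (SE, adjusted p = 0.019). TNF lost its call without SWOP replicates 2 or 4 or control replicate 4 (adjusted p up to 0.0598). CSF3, the granulocyte growth factor, read 6.32, 6.54, 6.32, 6.80 and 6.45 on control replicates 1 to 5 and 6.06, 5.80, 6.02, 5.88 and 6.05 on SWOP replicates 1 to 5. All SWOP values were below all control values, and CSF3 fell by 0.52 ± 0.10 (SE, adjusted p = 0.01) whichever array was left out. CCL4, a chemokine, fell by 0.52 ± 0.14 (SE, adjusted p = 0.037). CCL4 lost its call without any 1 of 6 arrays, all but SWOP replicate 1 and control replicates 1, 2 and 3 (adjusted p up to 0.0838). The list median was −0.25 with all arrays and −0.08 without control replicate 4, and the count lower was 1 without SWOP replicates 2 or 4 or control replicate 4. Of 30 interferon-stimulated genes 1 passed, B2M, the light chain of class I histocompatibility molecules, at −0.49 ± 0.14 (SE, adjusted p = 0.041), and its 8 other probe sets stood at 0.03 to 0.29, in the opposite direction. B2M lost its call without any 1 of 7 arrays, all but SWOP replicates 1 and 3 and control replicate 3 (adjusted p up to 0.102). Control replicate 5 held the highest of the 10 values in 21 of these 30 genes. Without it 2 were higher and 0 lower, and the list median went from 0.04 to 0.21.

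**Figure D3:**
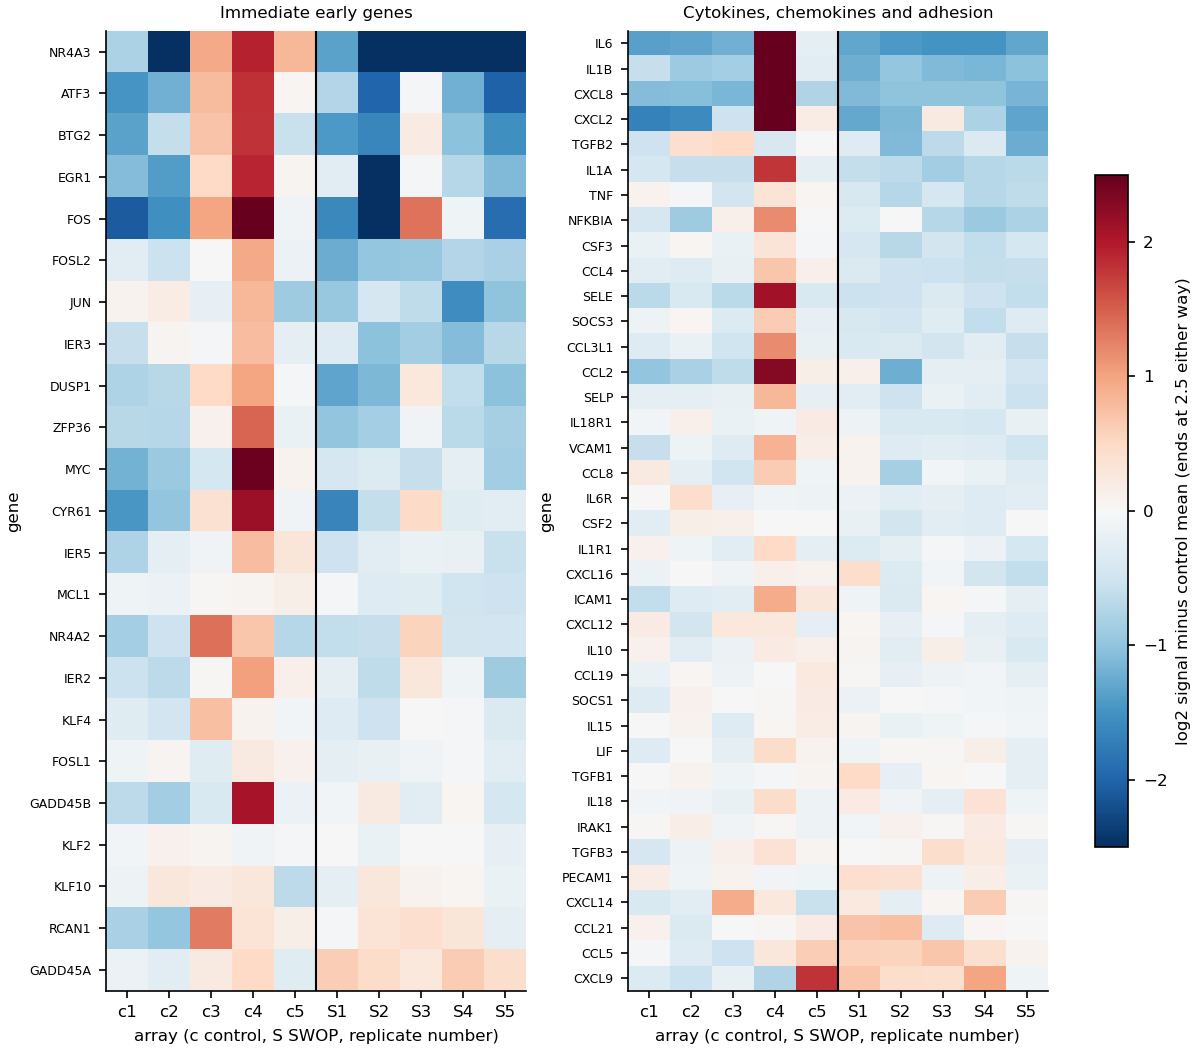
Each of 23 immediate early genes (left) and 38 cytokine, chemokine and adhesion genes (right) on the 5 control and 5 SWOP arrays, coloured by log2 signal minus the control mean, in order of the SWOP difference. Control replicate 4 holds the highest value in 16 and 21 of these genes.

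PDE4B, a phosphodiesterase that breaks down cyclic AMP, read 10.41, 10.66, 10.20, 10.36 and 11.02 on control replicates 1 to 5 and 9.67, 9.73, 9.59, 10.03 and 9.86 on SWOP replicates 1 to 5. The SWOP arrays were all lower. PDE4B fell by 0.75 ± 0.16 (SE, adjusted p = 0.014), kept without any single array. PDE4A, of the same family, fell by 0.48 ± 0.12 (SE, adjusted p = 0.027), while its 3 other probe sets stood between −0.21 and 0.11. PDE4A lost its call without any 1 of 6 arrays, all but SWOP replicate 1 and control replicates 1, 3 and 5 (adjusted p up to 0.0805). CREB1, the transcription factor that cyclic AMP activates, fell by 0.47 ± 0.10 (SE, adjusted p = 0.012), and the beta-1 adrenergic receptor, ADRB1, fell by 0.39 ± 0.11 (SE, adjusted p = 0.042). ADRB1 lost its call without any 1 of 9 arrays, all but SWOP replicate 1 (adjusted p up to 0.101). GNG5, a G protein subunit, rose by 0.50 ± 0.12 (SE, adjusted p = 0.023). GNG5 lost its call without SWOP replicates 3 or 4 or control replicate 4 (adjusted p up to 0.068). These were 4 lower and 1 higher of 23 genes of cyclic AMP, adrenergic and G protein signalling, against 3.5% lower and 4.66% higher over all genes. The list median was 0.01 as deposited and −0.05 after quantile normalization. The count lower was 2 without SWOP replicates 2, 3, 4 or 5 or control replicates 2 or 4. The catalytic subunits of protein kinase A, PRKACA and PRKACB, stood at 0.16 and 0.12 and did not pass.

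Cell cycle genes had 5 of 38 members higher and 1 lower, against 4.66% higher and 3.5% lower over all genes. CDKN3, a phosphatase of cyclin-dependent kinases, read 7.27, 6.64, 7.87, 7.61 and 7.22 on control replicates 1 to 5 and 8.30, 8.34, 8.32, 8.18 and 7.93 on SWOP replicates 1 to 5. SWOP arrays were all above control arrays, and CDKN3 rose by 0.89 ± 0.20 (SE, adjusted p = 0.017), with no loss without any array. PCNA, the sliding clamp of DNA replication, rose by 0.76 ± 0.18 (SE, adjusted p = 0.018). PCNA lost its call without SWOP replicate 4 (adjusted p up to 0.0502). H2AFZ, a histone variant, rose by 0.63 ± 0.16 (SE, adjusted p = 0.024), the kinase CDK2 by 0.47 ± 0.11 (SE, adjusted p = 0.016) and the spindle checkpoint protein BUB3 by 0.38 ± 0.08 (SE, adjusted p = 0.013). The 2 other probe sets of CDK2 stood at −0.004 and 0.12, and its call was lost with the mean of all its probe sets. H2AFZ lost its call without SWOP replicates 2 or 4 or control replicates 2 or 4 (adjusted p up to 0.0721). CCND2, a cyclin of the first growth phase, fell by 0.57 ± 0.13 (SE, adjusted p = 0.018). CCND2 lost its call without SWOP replicates 4 or 5 (adjusted p up to 0.0525). PCLAF, which binds PCNA, rose by 1.06 ± 0.27 (SE, adjusted p = 0.028) on its brightest probe set, the other standing at −0.07. PCLAF lost its call without SWOP replicates 2, 4 or 5 or control replicates 2 or 4 (adjusted p up to 0.0799). Unlike BUB3, some other genes of mitosis did not pass: TOP2A stood at 0.51 ± 0.20 (SE, adjusted p = 0.12), CCNB1 at 0.39 ± 0.29 (SE, adjusted p = 0.4) and CDC20 at 0.06 ± 0.19 (SE, adjusted p = 0.88). These examples were picked after their values were seen. The list median was 0.27 (0.23 after quantile normalization), and on single arrays it ran from −0.14 to 0.12 in control and 0.17 to 0.36 in SWOP. The count higher was 3 without SWOP replicate 4 and 8 without control replicate 3.

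EIF4B, which helps unwind messenger RNA for translation, read 11.48, 11.52, 11.18, 11.39 and 11.51 on control replicates 1 to 5 and 11.20, 10.88, 10.63, 10.68 and 10.68 on SWOP replicates 1 to 5. SWOP replicate 1 was level with the lowest control, and the other 4 SWOP arrays were lower. EIF4B fell by 0.60 ± 0.11 (SE, adjusted p = 0.0082), with its other probe set at −0.24. Of 37 translation factors and nucleolar genes it was the 1 that fell, and 3 rose: EIF3I at 0.39 ± 0.09 (SE, adjusted p = 0.022), NHP2 at 0.47 ± 0.12 (SE, adjusted p = 0.025) and EIF1AX at 0.42 ± 0.12 (SE, adjusted p = 0.047). EIF3I lost its call without SWOP replicates 2 or 4 or control replicates 2 or 4 (adjusted p up to 0.0654). NHP2 lost its call without SWOP replicates 2 or 4 or control replicates 2 or 4 (adjusted p up to 0.0713). EIF1AX lost its call without any 1 of 8 arrays, all but control replicates 1 and 3 (adjusted p up to 0.116). The list median was 0.03 as deposited and −0.06 after quantile normalization. The balance turned with the scaling: after quantile normalization 0 were higher and 3 lower, and EIF3I, NHP2 and EIF1AX lost their calls (adjusted p = 0.069, 0.073 and 0.17). The other probe set of NHP2 stood at −0.02. SWOP replicate 1 held the highest of the 10 values in 19 of the 37 genes. Cytosolic ribosomal proteins had 2 of 59 higher, RPL3 at 0.69 ± 0.16 (SE, adjusted p = 0.017) and RPL13 at 0.34 ± 0.09 (SE, adjusted p = 0.028), both of families with many processed copies. RPL3 lost its call without control replicate 2 (adjusted p up to 0.0523). RPL13 lost its call without any 1 of 7 arrays, all but SWOP replicate 3 and control replicates 3 and 5 (adjusted p up to 0.0765). The proteasome and ubiquitin list had 2 of 45 higher, PSMA7 at 0.27 ± 0.07 (SE, adjusted p = 0.027) and PSMD14 at 0.46 ± 0.12 (SE, adjusted p = 0.03). PSMA7 lost its call without SWOP replicates 4 or 5 or control replicate 4 (adjusted p up to 0.073). PSMD14 lost its call without any 1 of 7 arrays, all but SWOP replicate 1 and control replicates 1 and 3 (adjusted p up to 0.0856). Shares of 2 in 59 and 2 in 45 are near the 4.66% of all genes, and after quantile normalization 1 and 0 members passed.

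In the matrix list 1 of 38 genes rose and 1 fell. CILP, a matrix protein of cartilage and the fibrotic heart, read 8.19, 8.68, 9.54, 7.63 and 7.85 on control replicates 1 to 5 and 9.05, 9.48, 10.42, 10.27 and 9.99 on SWOP replicates 1 to 5. Control and SWOP values met at the edges, and CILP rose by 1.46 ± 0.40 (SE, adjusted p = 0.034), while its other probe set stood at −0.13. CILP lost its call without any 1 of 8 arrays, all but SWOP replicate 1 and control replicate 3 (adjusted p up to 0.0948). TIMP3, an inhibitor of matrix metalloproteinases, fell by 0.89 ± 0.21 (SE, adjusted p = 0.018), with another of its probe sets also passing. TIMP3 lost its call without SWOP replicate 2 or control replicate 4 (adjusted p up to 0.0522). Periostin, POSTN, stood at 0.94 ± 0.39 (SE, adjusted p = 0.13) and COL1A2 at −0.61 ± 0.47 (SE, adjusted p = 0.42), and neither passed. DDAH1, which degrades an inhibitor of nitric oxide synthases, was the 1 of 33 growth factor and vascular genes that passed. It read 8.52, 7.51, 9.03, 8.50 and 7.79 on control replicates 1 to 5 and 9.0, 9.43, 9.73, 9.42 and 9.92 on SWOP replicates 1 to 5. Control values spread widely and 1 overlapped the SWOP values. DDAH1 rose by 1.23 ± 0.30 (SE, adjusted p = 0.023), or 2.35-fold. DDAH1 lost its call without SWOP replicates 3, 4 or 5 or control replicates 2 or 5 (adjusted p up to 0.07). ECE1, which processes endothelin, fell by 0.59 ± 0.17 (SE, adjusted p = 0.038). ECE1 lost its call without any 1 of 8 arrays, all but SWOP replicate 3 and control replicate 3 (adjusted p up to 0.107).

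Markers of other cell types were compared as lists. Smooth muscle and pericyte markers had 4 of 17 higher, against 4.66% of all genes. These were CNN1, DES, TPM2 and MCAM, 2 of which the sarcomere list also holds. The defining genes ACTA2, TAGLN and MYLK stood at 0.16, −0.06 and −0.22 and did not pass. The list median ran from −0.11 to 0.11 in control and −0.08 to 0.32 in SWOP, and the count higher was 1 without SWOP replicates 2, 3 or 4 or control replicates 1 or 4 and 2 without SWOP replicate 5 or control replicate 2. After quantile normalization 2 were higher. The share of smooth muscle cells in the CNN1 result was not tested beyond these values. MCAM stood at 0.47 ± 0.14 (SE, adjusted p = 0.047). MCAM lost its call without any 1 of 9 arrays, all but control replicate 3 (adjusted p up to 0.118). Endothelial, fibroblast, lymphocyte and red cell markers had 0 of 17, 0 of 12, 0 of 12 and 0 of 4 members past the limma threshold, and 2, 3, 2 and 0 at an unadjusted p below 0.05. Among all 6765 genes 1113 were higher and 807 lower at that unadjusted p. Among 19 macrophage and monocyte markers SPI1, a transcription factor of myeloid cells, rose by 0.68 ± 0.17 (SE, adjusted p = 0.025) and the scavenger receptor MARCO fell by 0.50 ± 0.13 (SE, adjusted p = 0.03). SPI1 lost its call without SWOP replicates 2, 4 or 5 or control replicates 1 or 2 (adjusted p up to 0.0645). MARCO lost its call without any 1 of 7 arrays, all but SWOP replicate 1 and control replicates 1 and 3 (adjusted p up to 0.0854). CD163 and CD14, which define these cells, did not pass, at −0.12 and −0.42. Of 10 neutrophil markers 1 fell, ELANE at −0.52 ± 0.13 (SE, adjusted p = 0.023). ELANE lost its call without SWOP replicates 3, 4 or 5 or control replicates 2 or 4 (adjusted p up to 0.0689). S100A8 and S100A9, abundant in neutrophils, had control means of 5.12 and 4.38, below the 5.48 that marks the dimmest 30% of probe sets. LEP fell among 11 adipocyte markers, at −0.38 ± 0.10 (SE, adjusted p = 0.034), GFAP among 10 nerve markers, at −0.49 ± 0.11 (SE, adjusted p = 0.018), and KRT18 among 5 mesothelial markers, at −0.45 ± 0.11 (SE, adjusted p = 0.023). LEP lost its call without any 1 of 8 arrays, all but control replicates 1 and 3 (adjusted p up to 0.0884). GFAP lost its call without SWOP replicate 4 (adjusted p up to 0.0558). KRT18 lost its call without SWOP replicates 4 or 5 or control replicates 2 or 4 (adjusted p up to 0.07). Adiponectin, ADIPOQ, stood at −1.15 ± 0.56 (SE, adjusted p = 0.19) and did not pass. The adipocyte markers had a median of −0.38, and 6 of the 11 were lower at an unadjusted p below 0.05, against 807 of all 6765 genes. On single arrays they ran from −0.24 to 0.31 in control and −0.46 to −0.17 in SWOP. Control replicate 4 held the highest value in 6 of the 11, the median was −0.20 without it, and LEP lost its call after quantile normalization.

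**Figure D4:**
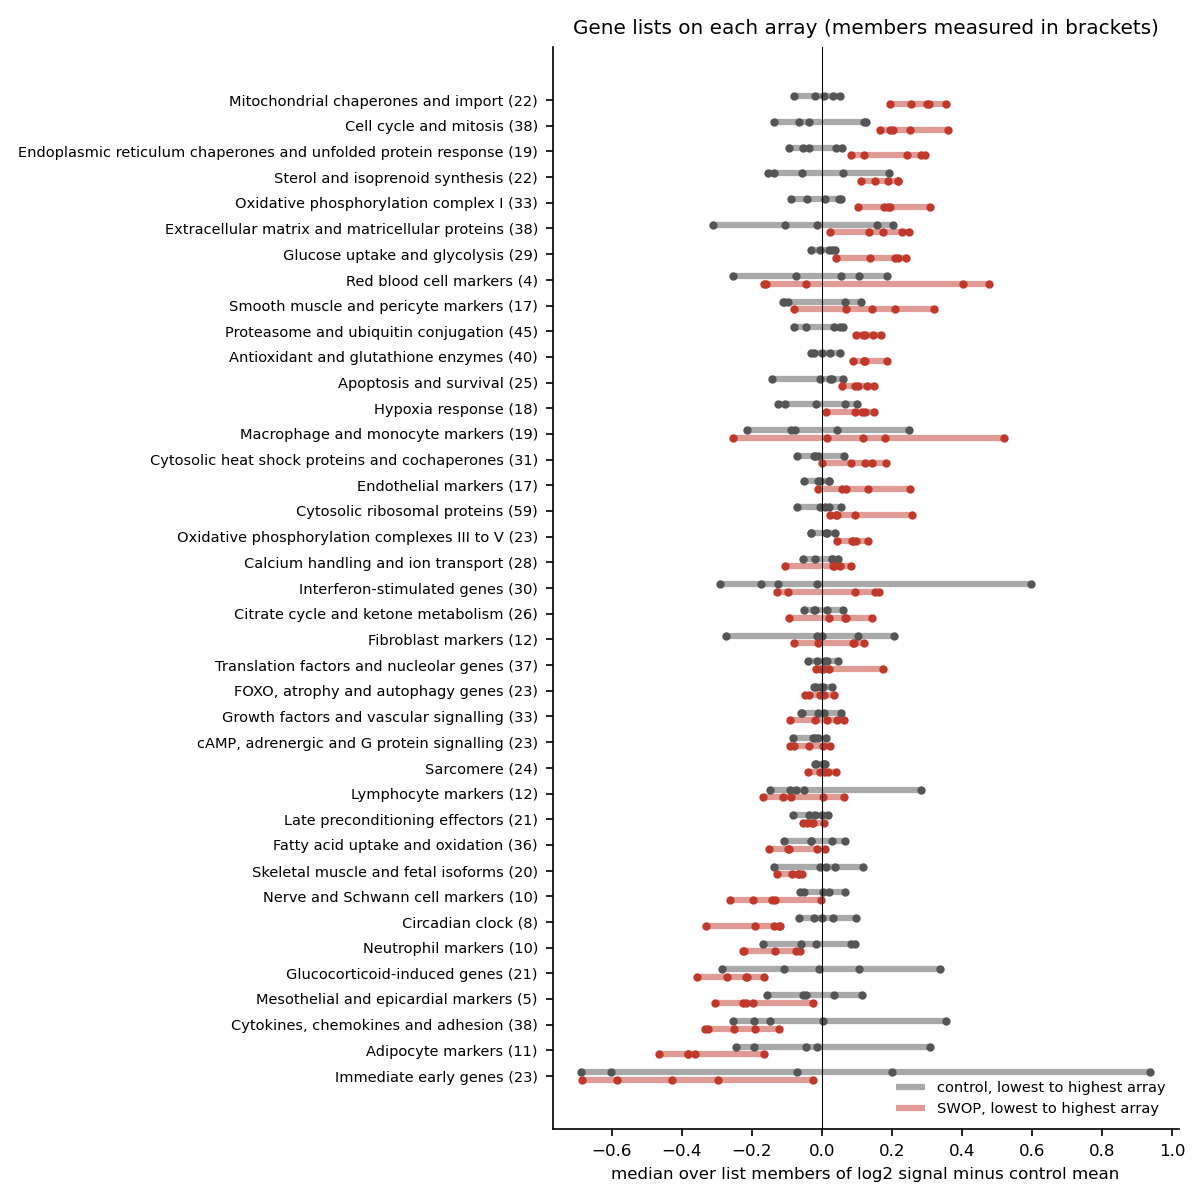
Median over the members of 39 gene lists of log2 signal minus the control mean (horizontal) on each control (grey) and SWOP (red) array, with bars from lowest to highest array. Mitochondrial import runs from 0.20 to 0.35 in SWOP, above all controls, while immediate early genes run from −0.69 to 0.94 in control and cover all SWOP arrays.

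The genes given next were picked because SWOP differed in the same direction from each of the 3 other groups at an adjusted p below 0.05. Their separation from RCO and RCS is part of that choice and gives no further support. PHTF1 read 4.87, 4.29, 4.83, 4.60 and 4.68 on control replicates 1 to 5 and 5.24, 5.62, 5.43, 5.42 and 5.81 on SWOP replicates 1 to 5. It was higher on all SWOP arrays than on any control array, rose by 0.85 ± 0.12 (SE, adjusted p = 0.0062), and differed by 0.52 from RCO (adjusted p = 0.015) and by 0.72 from RCS (adjusted p = 0.00028). Its means in control (4.65), RCO (4.99) and RCS (4.79) lie below the 5.48 limit of dim probe sets. PHTF1 met the limit for named genes only through its SWOP mean of 5.504. ARHGEF2, a protein bound to microtubules, read 9.31, 9.62, 9.31, 9.48 and 9.27 on control replicates 1 to 5 and 9.77, 10.33, 10.15, 10.07 and 10.14 on SWOP replicates 1 to 5. SWOP was above control throughout. ARHGEF2 rose by 0.69 ± 0.11 (SE, adjusted p = 0.0065) and differed by 0.86 from RCO (adjusted p = 0.00046) and by 0.53 from RCS (adjusted p = 0.0016). OXNAD1 read 8.87, 9.30, 9.10, 8.90 and 9.14 on control replicates 1 to 5 and 9.83, 9.91, 9.83, 9.56 and 9.55 on SWOP replicates 1 to 5. No value was shared between the groups. OXNAD1 rose by 0.67 ± 0.13 (SE, adjusted p = 0.011) and differed by 0.62 from RCO (adjusted p = 0.0091) and by 1.08 from RCS (adjusted p = 1.7e-05). CDK16, a cyclin-dependent kinase of post-mitotic cells, rose by 0.77 ± 0.15 (SE, adjusted p = 0.011) and differed by 0.67 from RCO (adjusted p = 0.012) and by 0.88 from RCS (adjusted p = 0.00026), while its 2 other probe sets stood at −0.03 and 0.42, the latter passing. THNSL1 rose by 0.78 ± 0.16 (SE, adjusted p = 0.011) and differed by 1.03 from RCO (adjusted p = 0.0015) and by 0.54 from RCS (adjusted p = 0.013). TRIM13, a ubiquitin ligase of the endoplasmic reticulum, rose by 0.63 ± 0.13 (SE, adjusted p = 0.012) and differed by 0.79 from RCO (adjusted p = 0.0024) and by 0.50 from RCS (adjusted p = 0.0071). NR2F6, an orphan nuclear receptor, rose by 0.70 ± 0.14 (SE, adjusted p = 0.012) and differed by 0.55 from RCO (adjusted p = 0.023) and by 0.78 from RCS (adjusted p = 0.00051). These 7 kept their calls against control without any single array.

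Of the genes higher in SWOP than in all 3 groups, only the 10 of largest difference from control were named. The share of all genes that passed in all 3 contrasts is not given here. The rest of the 10 were STOX1, at 0.91 ± 0.23 (SE, adjusted p = 0.027) against control, ALAS1, the first enzyme of heme synthesis, at 0.62 ± 0.19 (SE, adjusted p = 0.047), and MRS2, a mitochondrial magnesium channel, at 0.61 ± 0.14 (SE, adjusted p = 0.018). STOX1 lost its call without any 1 of 6 arrays, all but SWOP replicates 1 and 4 and control replicates 1 and 3 (adjusted p up to 0.0759). ALAS1 lost its call without any 1 of 9 arrays, all but SWOP replicate 1 (adjusted p up to 0.123). MRS2 lost its call without SWOP replicate 4 or control replicate 4 (adjusted p up to 0.0563). Lower in SWOP than in all 3 groups were CLU, which differed by −1.57 from RCO (adjusted p = 0.0036) and by −1.70 from RCS (adjusted p = 0.00019), FOSL2, by −1.18 from RCO (adjusted p = 0.006) and by −1.34 from RCS (adjusted p = 0.00032), NR4A3, by −4.05 from RCO (adjusted p = 0.0037) and by −2.95 from RCS (adjusted p = 0.0043), and ANKRD1, by −0.45 from RCO (adjusted p = 0.02) and by −0.74 from RCS (adjusted p = 0.00011). The others were AAED1, at −0.38 ± 0.08 (SE, adjusted p = 0.012) against control, the sorting nexin SNX30, at −0.37 ± 0.10 (SE, adjusted p = 0.033), and the serotonin receptor HTR1D, at −0.45 ± 0.11 (SE, adjusted p = 0.023). AAED1 kept its call whichever array was left out. SNX30 lost its call without any 1 of 7 arrays, all but SWOP replicate 1 and control replicates 1 and 3 (adjusted p up to 0.0928). HTR1D lost its call without SWOP replicates 2 or 5 or control replicates 2 or 4 (adjusted p up to 0.0633). Over all genes 11.9% passed between SWOP and RCO and 38.0% between SWOP and RCS. The RCS arrays also lay below all SWOP arrays in the actin gap and in spike-in signal, while their GAPDH gap covered the SWOP range. The part of these array differences in the contrasts with RCO and RCS was not tested.

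**Figure D5:**
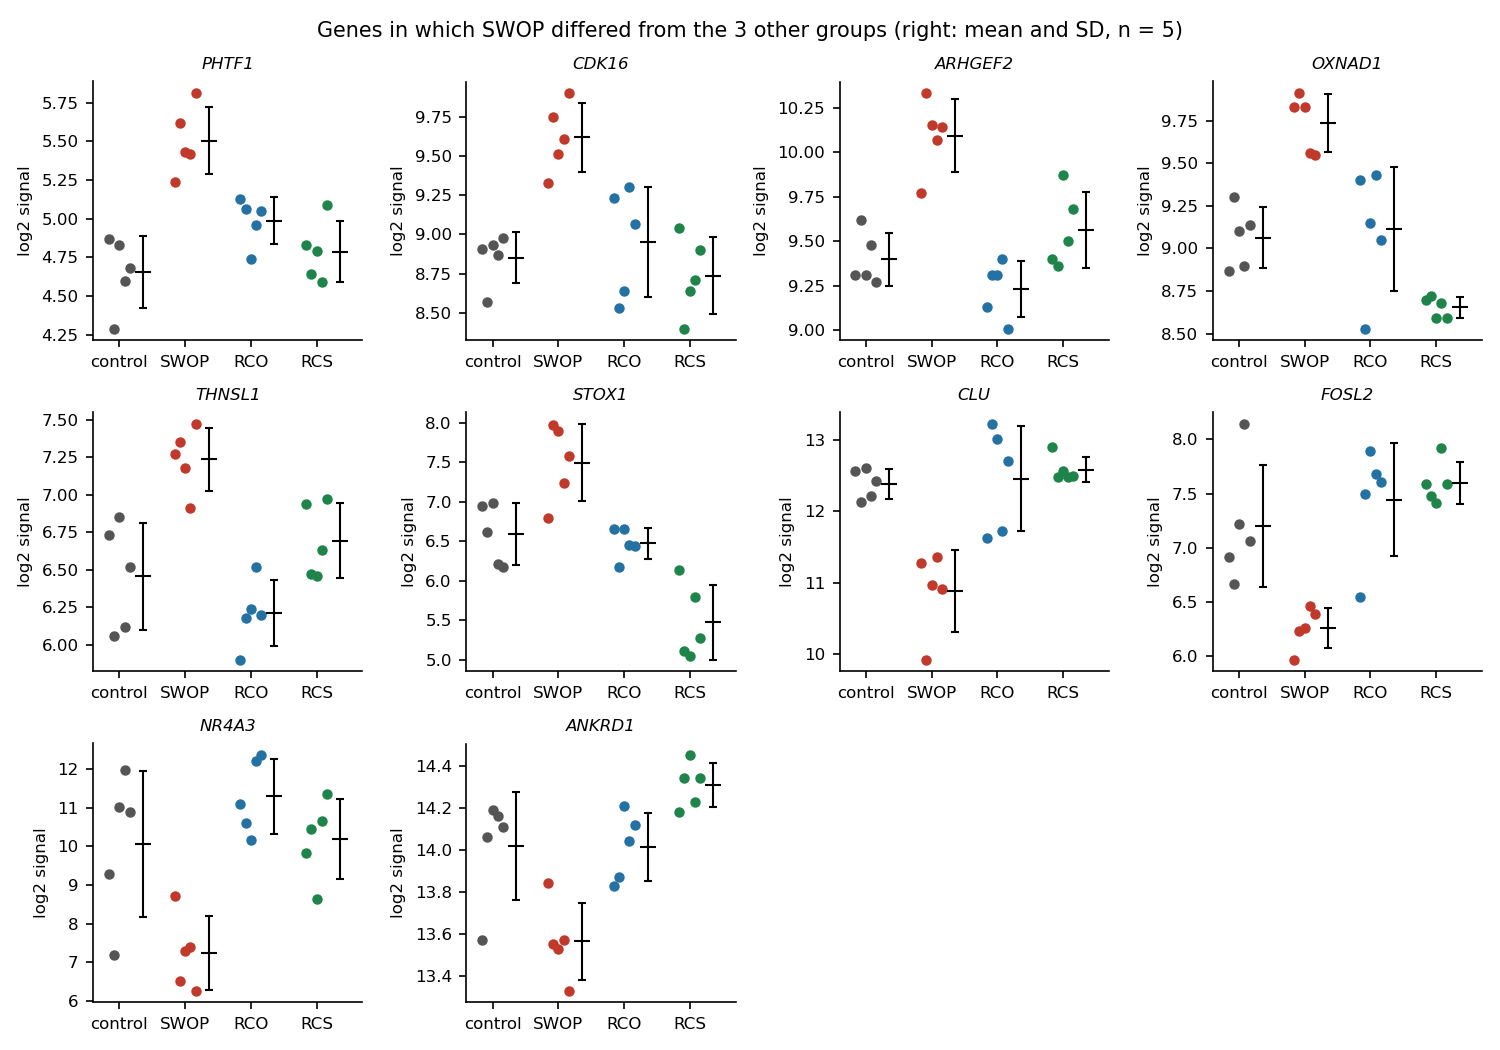
Log2 signal (vertical) of 10 genes on the arrays of control, SWOP, RCO and RCS, with the mean and SD of 5 arrays at the right of each group. The SWOP mean is highest in the first 6 and lowest in CLU, FOSL2, NR4A3 and ANKRD1, and in PHTF1, CDK16, OXNAD1, CLU and FOSL2 no SWOP array overlaps another group.

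Other large differences fell in no list. FEZ2 rose by 0.75 ± 0.18 (SE, adjusted p = 0.02), ANKRD29 by 0.80 ± 0.21 (SE, adjusted p = 0.032) and C2CD2 by 0.78 ± 0.23 (SE, adjusted p = 0.048). FEZ2 lost its call without SWOP replicates 4 or 5 or control replicates 2 or 4 (adjusted p up to 0.0582). ANKRD29 lost its call without any 1 of 6 arrays, all but SWOP replicates 1 and 5 and control replicates 1 and 3 (adjusted p up to 0.0842). C2CD2 lost its call without any 1 of 9 arrays, all but control replicate 1 (adjusted p up to 0.124). PTPMT1, a mitochondrial phosphatase of cardiolipin synthesis, rose by 0.77 ± 0.21 (SE, adjusted p = 0.035), with its other probe set at −0.26. PTPMT1 lost its call without any 1 of 7 arrays, all but SWOP replicate 1 and control replicates 1 and 3 (adjusted p up to 0.0928). PPL, the cytolinker periplakin, fell by 0.77 ± 0.17 (SE, adjusted p = 0.016), FAM46A by 0.59 ± 0.13 (SE, adjusted p = 0.016) and FXYD3, a regulator of the sodium pump, by 0.58 ± 0.12 (SE, adjusted p = 0.012), each kept without any single array. NPG4, a protegrin of a porcine family of near-identical antimicrobial peptides, fell by 0.65 ± 0.14 (SE, adjusted p = 0.013), and its 5 other probe sets, at −0.35 to −0.07, had the same sign. KLF11, a zinc finger repressor, fell by 1.09 ± 0.27 (SE, adjusted p = 0.023). KLF11 lost its call without SWOP replicates 2 or 4 or control replicates 2 or 4 (adjusted p up to 0.0629). SELENOI, NDEL1, SDS, ANK3 and SLC6A4, the serotonin transporter, stood at −0.70 ± 0.19 (SE, adjusted p = 0.032), −0.69 ± 0.18 (SE, adjusted p = 0.03), −0.68 ± 0.20 (SE, adjusted p = 0.042), −0.67 ± 0.20 (SE, adjusted p = 0.048) and −0.57 ± 0.17 (SE, adjusted p = 0.043). SELENOI lost its call without any 1 of 7 arrays, all but SWOP replicate 3 and control replicates 3 and 5 (adjusted p up to 0.0842). NDEL1 lost its call without any 1 of 6 arrays, all but SWOP replicates 2 and 3 and control replicates 1 and 2 (adjusted p up to 0.0737). SDS lost its call without any 1 of 8 arrays, all but control replicates 1 and 3 (adjusted p up to 0.0907). ANK3 lost its call without any 1 of 9 arrays, all but control replicate 1 (adjusted p up to 0.12). SLC6A4 lost its call without any 1 of 7 arrays, all but SWOP replicate 1 and control replicates 1 and 3 (adjusted p up to 0.12).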

How the data were processed

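Values were used as the authors deposited them, as log2 signals with 2 decimals; the log base is not stated and was taken as 2 from their range. RMA and MAS5 are named per the submitters' processing notes, without version or role. Per the labels' protocols, Trizol-extracted RNA was labelled with biotin. Scanner files were not used here. The 124 control probe sets were left out. Symbols came from the platform's probe table, and 198 probe sets with several symbols and 13732 with none were tested but not named. Group means of all 20 arrays were fitted with limma 3.58.1 in R 4.3.3 (lmFit, eBayes, 16 residual degrees of freedom), with Benjamini-Hochberg adjustment over 23999 probe sets and a threshold of 0.05.

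Genes were named by a rule. They had to pass the threshold, with the higher of their SWOP and control means above the 30th percentile of signal. A gene could therefore meet this limit through the group where it was high, as PHTF1 did. From these came the 25 largest differences in each direction and up to 4 members of each of 39 lists. Up to 10 in each direction that also differed from RCO and RCS were taken, plus all late effectors and clock genes. H2AFZ, BAG1, STUB1, ADRB1 and the genes that did not pass, outside those 2 lists, were chosen after their values were seen. Of 1297 list members 895 were measured, 5 under a synonym. The groups, lists and members were chosen with earlier results of these data known. Replicate numbers did not pair samples: deviations of same-numbered SWOP and control arrays correlated at −0.10 to 0.01. No arrays were duplicates. Alternatives were quantile normalization, centring, a dim filter, an intensity trend, array weights, a replicate block, a 1.5-fold limit, 2 groups only, mean probe sets and arrays left out. Scripts' statistics were tested on simulated data. With 1 spread shared by all groups 11 of 185 calls (5.95%) were false. With each group's own spread 19 of 188 calls (10.1%) were false, above the 5% that the threshold aims at. Tables used Python 3.11.15, pandas 2.3.3, numpy 2.4.6, scipy 1.17.1 and matplotlib 3.10.9.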

Additional observations from a re-analysis of the deposited data

Results flagged for a closer look

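In 14 of 354 groups of 5 arrays checked, 1 array lay far from the other 4 by Dixon's test, where chance gives about 5%, or 1 in 20. In control these were CDK16, with a lowest value of 8.57, ANKRD1, with a lowest value of 13.57, RORA, with a lowest value of 6.61, PTGS2, with a highest value of 6.00 on control replicate 4, and CRYAB, with a highest value of 13.77. In SWOP they were PFKP, with a highest value of 8.99, IDH1, with a lowest value of 8.53, RPL3, with a lowest value of 11.94, RPL13, with a highest value of 12.55, and CDK2, with a lowest value of 7.66. Among list medians relative to control they were the translation list in SWOP, with a highest array at 0.18 (0.176), the calcium and ion transport list in SWOP, with a lowest array at −0.10 (−0.104), and lymphocyte markers in control, with a highest array at 0.28 (0.283). The mean spike-in signal of SWOP replicate 1 was 11.60 (11.598).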

How the results depend on the processing

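With 5 arrays a group, counts of passing probe sets and genes moved with the settings. Of 1716 probe sets and 552 genes, quantile normalization gave 957 and 286, array weights 5710 and 1793, only the SWOP and control arrays in the fit 4091 and 1383, and a limit of 1.5-fold 254 and 87. Leaving out each of the 10 arrays in turn gave 480 to 2023 probe sets and 158 to 627 genes. The replicate block gave 2119 probe sets and 695 genes; the numbers do not pair the samples. Of passing probe sets 42.1% were higher as deposited and 57.2% after centring. Settings added after seeing the data gave 2748 and 903 without RCO replicates 2 and 3, and 55 and 19 without control replicates 4 and 5, which kept 9 of the 107 named calls. Of these 107, 39 lost their call after quantile normalization and 71 without at least 1 array. The centred, dim-filtered and trended fits and the mean of all probe sets kept the counts within 1.5 times. The causes were not tested.

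Direction turned in some genes that did not pass. PTGS2 stood at 0.0787 without control replicates 4 and 5, where SOD2 stood at −0.00067 and JAK2 at −0.0133. Over the fits that left out 1 array each, PTGS2 ran from −0.491 to 0.0195, HSP70.2 from −0.246 to 0.0105, ADORA1 from −0.11 to 0.018, JAK2 from −0.0105 to 0.0925 and BHLHE40 from −0.301 to 0.0015. After quantile normalization ADORA1 stood at 0.0396, STAT3 at −0.0158 and CSNK1D at −0.0492, and with array weights BHLHE40 stood at 0.0353. With the mean of all probe sets CRYAB stood at −0.603, JAK1 at 0.008 and B2M, which had passed, at 0.0516.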
